A study of Ovis aries with 30 samples.

Results

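Collagen genes were examined in RNA sequencing libraries of perirenal brown adipose tissue (BAT) and thyroid tissue from newborn Romney lambs. The members were all genes of the deposited count table whose symbol was COL, a number, A and a number. They were 42 of 28524 genes. There were 11 fibrillar chains, 6 chains of type IV collagen, which builds basement membranes, 5 of type VI, 9 fibril-associated (FACIT) chains, 3 short-chain network formers, 2 multiplexins, 3 transmembrane chains, 1 anchoring fibril chain and 2 others. The 15 lambs, taken from twin births with 1 lamb used per dam, were split at random into a group kept indoors at 4 °C for 2 days (cold, n = 6), a group kept indoors at 20 to 22 °C for 2 days (AT, n = 6) and a control group sampled about 24 h after birth (n = 3). Every lamb gave both tissues, hence 30 libraries, and lamb numbers within a group are names only. Controls were sampled before the indoor period and were 2 days younger, so against controls the effects of age, housing and temperature cannot be told apart, while cold and AT lambs were the same age at sampling.

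Collagens are proteins in which 3 chains wind into a triple helix. Fibrillar collagens (types I, III and V are the common ones in soft connective tissue) assemble into the fibres of the stroma and are made mostly by fibroblasts, whereas type IV collagen forms the sheet-like network under epithelia and around capillaries and adipocytes. Newly made chains are hydroxylated and folded in the endoplasmic reticulum, trimmed after secretion and cross-linked by lysyl oxidases. In BAT every adipocyte lies within a basement membrane beside a dense capillary bed, and in the thyroid each follicle of hormone-producing cells is wrapped in basement membrane and separated from its neighbours by a thin fibrous stroma.

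Total read counts were 31556500 to 37025998 per BAT library and 25062784 to 30124871 per thyroid library. In BAT 43.8 to 76.5% of those reads, and in thyroid 5.18 to 27.8%, fell on a pair of unnamed genes, LOC114112617 and LOC114115287. Summed normalized counts of 8 thyrocyte markers were 1322900 or more in every thyroid library and at most 1552 in BAT, with thyroglobulin among them. Sums of 6 brown adipocyte markers were 809 to 92733 in BAT and 651 to 12469 in thyroid, ranges that overlapped. In both tissues the study left out 1 control lamb, called Control 2 here, and tests below use the 12 treated lambs with Controls 1 and 3. Control 2 had the highest brown adipocyte marker sum in each tissue (92733 in BAT and 12469 in thyroid). The larger part of every thyroid sum was the coactivator gene PPARGC1A, at 556 to 11167 and highest in Control 2. The uncoupling protein gene UCP1 was at 3.01 to 598 in thyroid and 195 to 87348 in BAT. The thyroid library of AT lamb 3 stood apart by its skeletal muscle marker sum, 3353020.0, against 292531 in the thyroid of Control 1 and at most 4029.7 in the other 13 thyroid libraries. Normalized counts are reads divided by a library factor taken from ACTB, RPL19 and HUWE1, which were the reference genes of the study. Because these are pieces of bulk tissue, more cells of a type and more RNA per cell cannot be told apart.

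The genes are placed on the sheep assembly Oar_rambouillet_v1.0, and each value below sums reads over all annotated exons of a gene. The type IV genes stand in 3 head-to-head pairs on opposite strands: COL4A1 (chr10:94949295-95078089) and COL4A2 (chr10:95078393-95236464) are separated by 303 bases. COL4A4 (chr2:244476390-244625739) and COL4A3 (chr2:244626028-244785086) are 288 bases apart, and COL4A5 (chrX:134897350-135159473) and COL4A6 (chrX:135160817-135508075) 1343 bases. The type I chains are on different chromosomes, COL1A1 at chr11:26851657-26869491 and COL1A2 at chr4:13598410-13634810. COL3A1 (chr2:130212137-130252353) and COL5A2 (chr2:130046085-130195409) are neighbours, 16727 bases apart, as are the type VI genes COL6A1 (chr1:289035702-289056733) and COL6A2 (chr1:289171888-289204036), 115154 bases apart. Whether the counting used strand is not given in the sources used here, so reads from the opposite strand at these pairs could not be separated.

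Collagen transcripts were a small part of each library, and their order differed between the tissues. Outside the pair of unnamed genes, collagen reads made up 0.612 to 1.57% of reads in BAT of cold lambs, 0.770 to 2.37% in AT lambs and 0.601 to 0.889% in the 3 controls. In thyroid the same share was 0.414 to 0.922%, 0.485 to 0.693% and 0.318 to 0.486%. Levels of different genes were compared as normalized counts per kilobase of exon, over the 12 treated lambs and with 1 set of library factors for both tissues. In BAT the highest median was that of COL3A1, the type III chain of extensible fibrils, at 7067 (4791 to 19602), followed by the basement membrane chain COL4A1 at 4811 (3462 to 5521), the type I chain COL1A1 at 3290.3 (1479 to 16953), COL4A2 at 3279 (2382 to 4137) and COL1A2 at 2501 (1274 to 12479). The ranges of COL1A1 and COL1A2 spanned those of COL4A1 and COL4A2. They overlapped those of the next genes, COL15A1 at 2173 (1183 to 3177) and COL6A1 at 2155 (1455 to 3539), and ranges of neighbours in that order overlapped across lambs. Within each treated BAT library COL3A1 was above COL1A1 (lowest ratio 1.16) and COL4A1 above COL4A2 (lowest ratio 1.33). COL15A1 is a multiplexin that links basement membranes to the stroma, and COL6A1 is part of the beaded filaments that surround cells.

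In thyroid COL3A1 again had the highest median, 2073 (1199 to 6326), with COL4A1 at 1569 (1104 to 1821), COL4A2 at 1540.4 (1248 to 1765) and COL1A1 at 1506 (709 to 4717). The fifth was COL8A1, a short-chain collagen of sheet-like networks, at 1388 (998 to 1839), a gene that ranked 14 in BAT at 168 (89.8 to 429.9). These first 5 overlapped one another across lambs. COL23A1, a transmembrane collagen, ranked 10 in thyroid at 324 (214 to 532) and 31 in BAT at 8.43 (4.17 to 23.8). At the low end, the cartilage collagen genes COL2A1 and COL10A1 and the muscle and tendon junction gene COL22A1 had per-kilobase medians under 1 in both tissues, and no more than 10 reads of COL2A1 or COL10A1 were counted in any treated library. Of the 42 members, 32 passed the filter of at least 10 reads in at least 10 libraries in BAT and 34 in thyroid, and the tests within a tissue cover those genes. Not tested were COL2A1, COL4A3, COL6A5, COL9A1, COL9A2, COL10A1, COL11A1, COL22A1, COL24A1 and COL26A1 in BAT and COL2A1, COL6A5, COL9A1, COL9A2, COL9A3, COL10A1, COL22A1 and COL28A1 in thyroid, with medians of at most 15.9 and 12.4 normalized counts in treated lambs.

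**Figure D1:**
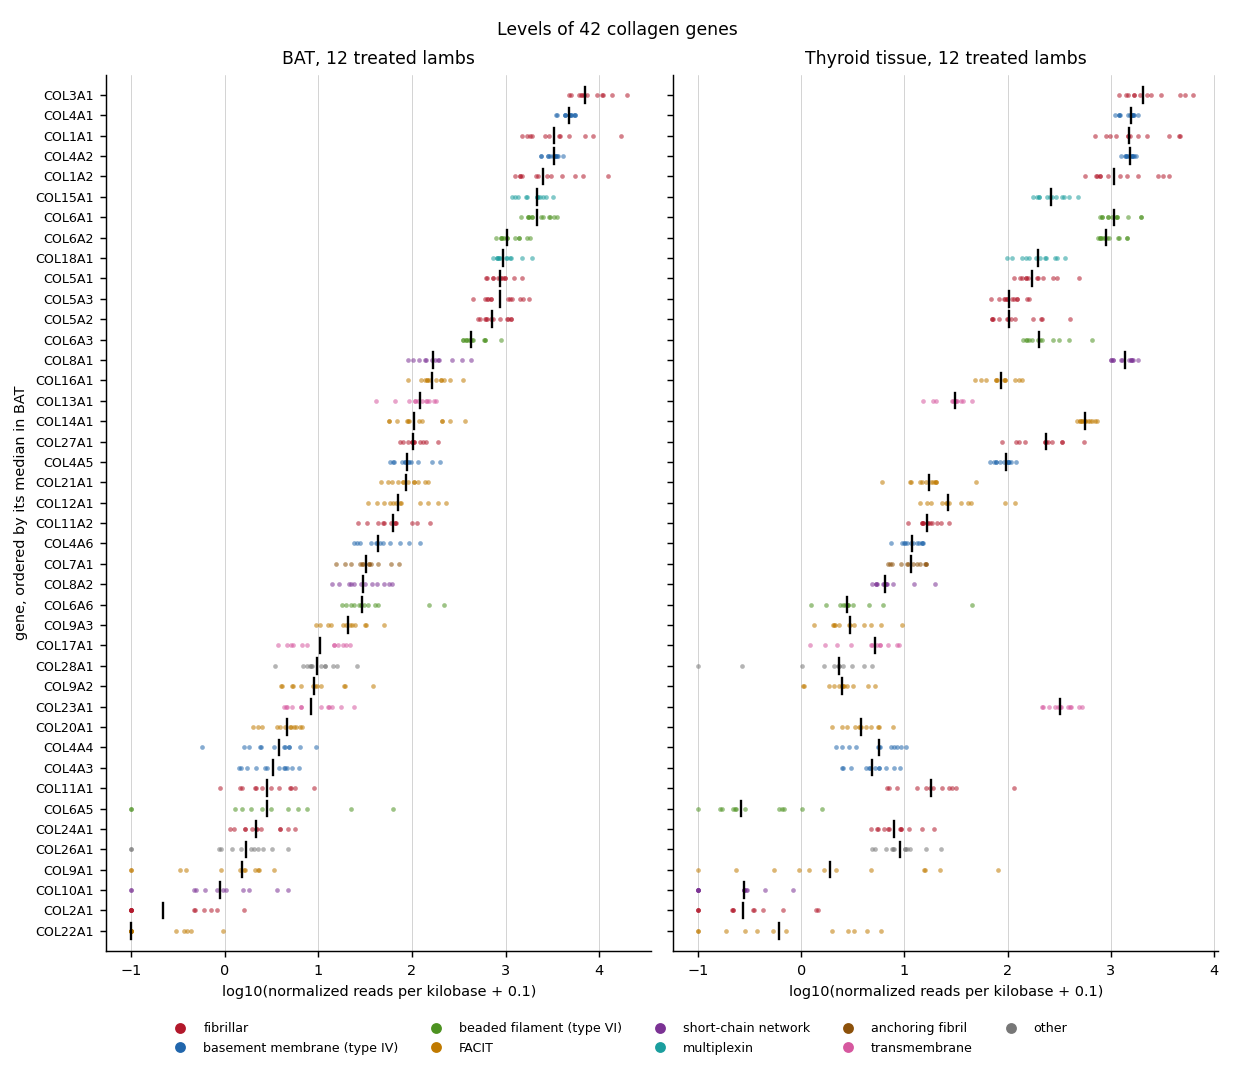
Normalized counts per kilobase of exon (log axis) of the collagen genes in the 12 treated lambs, by class, for BAT and thyroid. COL3A1 had the highest median in both tissues (7067 in BAT and 2073 in thyroid), and COL23A1 and COL8A1 were higher in thyroid than in BAT.

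The balance of fibrillar to basement membrane collagen differed between treated lambs and controls in both tissues. Within each library the summed reads per kilobase of the 11 fibrillar genes were divided by those of the 6 type IV genes, a ratio that needs no library factor. In BAT the ratio was 0.581, 0.758 and 0.689 in Controls 1, 2 and 3, 1.10 to 3.74 (median 1.86, mean 2.16 ± 1.02 SD) in cold lambs and 1.21 to 6.92 (median 2.79, mean 3.09 ± 2.08 SD) in AT lambs. In thyroid it was 0.453, 0.231 and 0.342 in the controls, 1.09 to 3.82 (median 1.87, mean 2.27 ± 1.24 SD) in cold lambs and 1.23 to 4.62 (median 1.79, mean 2.25 ± 1.23 SD) in AT lambs. In each tissue all 12 treated lambs lay above all 3 controls, while cold and AT lambs overlapped over most of their ranges. No p-value is given for this sum over genes, since the grouping was made with earlier results of these data known.

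As a share of all collagen reads per kilobase, the fibrillar genes had a median of 30.03% in BAT of controls, 50.7% in cold and 54.1% in AT lambs. The type IV share was 43.6%, 27.4% and 19.5% in the same order. In thyroid the fibrillar share was 15.6%, 39.5% and 40.0%, and the type IV share 45.6%, 21.3% and 22.4%. Shares add up to one total, so a higher share of one class lowers the others and does not show which class changed in level. The type VI share stayed within 10.9 to 13.2% in BAT and 15.2 to 15.9% in thyroid as group medians. FACIT genes, which decorate fibril surfaces, went from 10.8% in thyroid of controls to 4.76% in cold and 4.97% in AT lambs as medians, but 1 of the 3 controls, at 4.89%, lay within the 3.21 to 7.29% of treated lambs. Per-kilobase sums of the fibrillar genes were 8797 to 9625 in the 3 BAT controls and 1717 to 1872 in the 3 thyroid controls. In the 12 treated lambs they were 10615 to 52183 in BAT and 3493 to 15933 in thyroid, highest in AT lamb 6 and AT lamb 3. The ranges cover unequal numbers of lambs, so their widths are not compared.

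**Figure D2:**
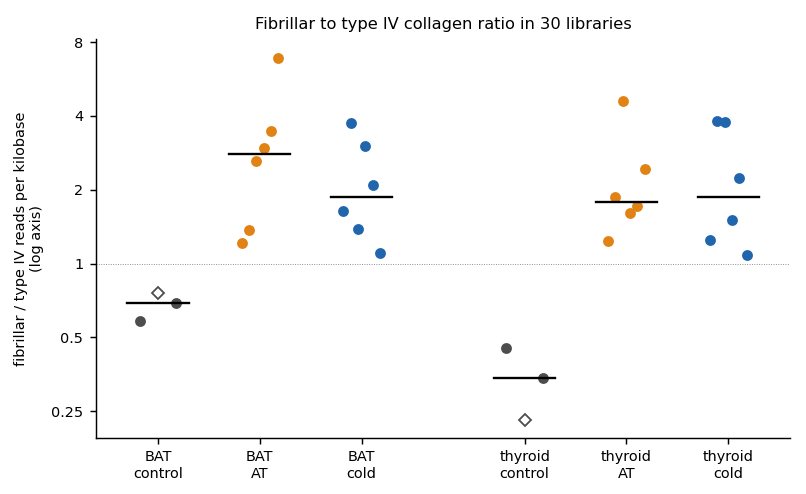
Ratio of summed fibrillar to summed type IV collagen reads per kilobase in each library (log axis), by tissue and group, with a bar at the group median of all libraries shown. Circles are libraries and the open diamond is Control 2, which the tests left out; every treated library lies above every control of its tissue.

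In thyroid tissue against controls, the genes of type I and type III collagen were upregulated under both cold and ambient-temperature conditions. Of 34 collagen genes tested, 7 passed log2FC of at least 1 in size with an adjusted p-value below 0.05 under cold conditions, all upregulated, where 8.04% of the 16122 genes tested passed in either direction and 1.89% passed upward. Under ambient-temperature conditions 7 passed as well, all upregulated, against 7.81% of all genes in either direction and 1.83% upward. The 7 genes were the same in both comparisons, COL1A1, COL1A2, COL3A1, COL4A6, COL7A1, COL16A1 and COL23A1, and both comparisons used the same controls. On adjusted p alone 10 and 11 of the 34 passed, against 19.3% and 21% of all genes. The median log2FC of the 34 genes was 0.47 under cold and 0.75 under ambient-temperature conditions, where that of all genes was -0.28 in each. The split of all calls depended on the scaling: 305 genes were higher and 992 lower under cold conditions with the reference genes against 457 and 336 with the trimmed mean (TMM) factors of edgeR, and 295 and 964 against 471 and 269 under ambient-temperature conditions. With TMM 8 and 9 collagen genes were upregulated and none was downregulated. The counts of 7 fell to 2 in each comparison with Controls 1 and 2 in place of 1 and 3, to 3 without cold lamb 3 (cold comparison), and to 4 without cold lamb 2 (cold comparison), or without cold lamb 5 or AT lamb 6 (both comparisons).

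COL1A1 encodes the more abundant chain of type I collagen. The normalized count of COL1A1 was 6901 to 45371 (median 13856) in the 6 cold lambs and 9222 to 43217 (median 14276) in the 6 AT lambs. COL1A1 in Controls 1 and 3 was at 3246 and 3086, and in Control 2 at 5704. All 12 treated lambs were above all 3 controls. The log2FC ± SE was 2.705 ± 0.84 (adjusted p = 0.0399) for cold and 2.62 ± 0.84 (adjusted p = 0.0417) for AT by edgeR's quasi-likelihood test with Benjamini-Hochberg adjustment, as for every adjusted p-value that follows. COL1A2, the partner chain, followed it. COL1A2 had 1681 and 1558 normalized counts in Controls 1 and 3 and 2693 in Control 2. Counts of COL1A2 in cold lambs ran from 4251 through a median of 8094 to 24431 and in AT lambs from 5261 through 7889.5 to 26019. Its log2FC was 2.88 ± 0.88 (adjusted p = 0.0379) and 2.78 ± 0.87 (adjusted p = 0.0399), again with no overlap between treated lambs and controls. COL3A1 encodes the single chain of type III collagen, which forms fibrils together with type I. For COL3A1 the lowest, median and highest normalized counts were 10819, 18189.8 and 48162 under cold conditions and 12887, 18222 and 53739.6 under ambient-temperature conditions. COL3A1 was at 5525, 5350.2 and 5144 in Controls 1, 2 and 3. The 3 controls were close to one another and below every treated lamb, and the log2FC was 2.23 ± 0.72 (adjusted p = 0.046) and 2.18 ± 0.72 (adjusted p = 0.046). Without AT lamb 3, whose library held the skeletal muscle transcripts and the highest COL1A2 and COL3A1 counts, the AT log2FC was 2.21 (adjusted p = 0.0366) for COL1A1, 2.32 (adjusted p = 0.0324) for COL1A2 and 1.77 (adjusted p = 0.0376) for COL3A1. With all 3 controls the 3 genes kept their calls in both comparisons (COL1A1 2.36 and 2.28). With Controls 1 and 2 alone none of them had an adjusted p under 0.05, at values of 2.20 and 2.11 for COL1A1, 2.44 and 2.34 for COL1A2, and 2.19 and 2.15 for COL3A1. Over 23 alternatives the call was lost in 8 for COL1A1, 7 for COL1A2 and 11 for COL3A1 under cold and in 6, 7 and 9 under ambient-temperature conditions, with adjusted p at most 0.101 and the same direction throughout. All 3 genes lost it in both comparisons without the filter, without cold lamb 5 and without AT lamb 6, in the cold comparison without cold lamb 2 or cold lamb 3, and in the AT comparison without AT lamb 4. COL3A1 also lost the cold call without AT lamb 4 and both calls without AT lamb 2, with RNA integrity as a covariate and with edgeR's own expression filter. With only the 2 groups compared COL3A1 lost both calls (adjusted p = 0.0505 and 0.0586). In that setting COL1A1 lost the cold call (adjusted p = 0.0599) and COL1A2 the AT call (adjusted p = 0.0548), while COL1A1 kept its AT call and COL1A2 its cold call. With Controls 2 and 3 alone COL1A1 was at 2.23 (adjusted p = 0.0673) and 2.15 (adjusted p = 0.0781) and COL1A2 at 2.49 (adjusted p = 0.0522) and 2.39 (adjusted p = 0.0625).

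The other fibrillar genes were not called in thyroid. The type V chains, minor partners that set fibril diameter, had log2FC of 0.74 ± 0.47 and 0.999 ± 0.48 for COL5A1, 0.78 ± 0.66 and 1.06 ± 0.67 for COL5A2, and 0.19 ± 0.29 and 0.27 ± 0.29 for COL5A3 under cold and ambient-temperature conditions, with adjusted p from 0.151 to 0.664. COL24A1 was at 1.34 ± 0.54 (adjusted p = 0.0936) and 1.06 ± 0.53 (adjusted p = 0.165). COL11A1, a chain best known from cartilage, ranged from 76.6 to 1325 normalized counts among cold lambs, the highest being cold lamb 6, and had log2FC of 2.08 ± 1.17 (adjusted p = 0.222). COL27A1 had its highest thyroid count in the same library, 6804, and COL9A1 its highest in cold lamb 4, 492. Summed cartilage markers in thyroid were 1863 to 3542 in cold lambs, 2096 to 3642 in AT lambs and 1559 to 4279 in controls, and their part in these values was not tested. The larger part of each sum was SOX9, at 1178 to 3700. Of the 10 list genes counted, 6 had a median under 10 reads in thyroid.

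Among the type IV genes of the thyroid, the rare chain COL4A6 was upregulated and the abundant chains COL4A1 and COL4A2 were lower without passing the size threshold. COL4A6, with COL4A5, belongs to a network found in the basement membranes of smooth muscle and some epithelia. For COL4A6 the lowest, median and highest normalized counts were 82.2, 125 and 160.1 under cold conditions and 105, 148 and 172 under ambient-temperature conditions. COL4A6 was at 52.1, 61.7 and 47.6 in Controls 1, 2 and 3. No treated lamb overlapped any control, and the log2FC was 1.31 ± 0.31 (adjusted p = 0.012) and 1.501 ± 0.31 (adjusted p = 0.00573). That call held in all 23 alternative settings for each comparison. COL4A5 had log2FC of 0.95 ± 0.23 (adjusted p = 0.0122) and 0.96 ± 0.23 (adjusted p = 0.0104), just under the size threshold, and its treated lambs (747 to 1259) also lay above all 3 controls (454 to 563). COL4A1 had 19249 and 28229 normalized counts in Controls 1 and 3 and 31028 in Control 2. Counts of COL4A1 in cold lambs ran from 11751 through a median of 15841 to 19193 and in AT lambs from 11164 through 15848 to 16759. Every treated lamb was below every control for COL4A1, with log2FC of -0.63 ± 0.21 (adjusted p = 0.0529) and -0.69 ± 0.21 (adjusted p = 0.0347). For COL4A2 the lowest, median and highest normalized counts were 12241, 14530.2 and 18629 under cold conditions and 14392, 15976 and 16464 under ambient-temperature conditions. COL4A2 was at 18334, 52194 and 25697 in Controls 1, 2 and 3. For COL4A2 the log2FC was -0.54 ± 0.16 (adjusted p = 0.0326) and -0.48 ± 0.16 (adjusted p = 0.0497), with 5 of 6 cold and all 6 AT lambs below all 3 controls, and with all 3 controls it was called at -1.09 (adjusted p = 0.00736) and -1.02 (adjusted p = 0.011). With TMM scaling, under which the median of all genes moved from -0.28 to 0.02 for cold and 0.05 for AT, COL4A1 was at -0.31 (adjusted p = 0.32) and -0.34 (adjusted p = 0.269) and COL4A2 at -0.22 (adjusted p = 0.369) and -0.13 (adjusted p = 0.61). Of 8 endothelial markers tested in thyroid, 1 was higher under cold and none under ambient-temperature conditions, at medians of -0.56 and -0.59, and PECAM1 (-1.30 ± 0.30 and -1.25 ± 0.30) passed in both and CDH5 (-1.0004 ± 0.31) under cold. Of 8 mural cell markers, 2 and 4 were higher, at medians of -0.39 and -0.02, and TAGLN (-1.39 ± 0.31 and -1.005 ± 0.31) passed in both. Endothelial sums in thyroid were 13480.0 to 18480.0 in cold lambs, 10690.0 to 23787 in AT lambs and 10631 to 33132 in controls, and the part of these cells in the thyroid type IV values was not tested. COL4A3 and COL4A4, which form the mature kidney and lung network with COL4A5, were low, at medians of 60.7 and 67.3 normalized counts in treated lambs, and were not called.

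Further calls in thyroid fell on 3 genes outside the fibrillar and type IV classes. COL23A1 is a transmembrane collagen. The normalized count of COL23A1 was 984 to 1744 (median 1289) in the 6 cold lambs and 1261 to 2358 (median 1612) in the 6 AT lambs. COL23A1 in Controls 1 and 3 was at 410.4 and 146, and in Control 2 at 5325. All 12 treated lambs were above Controls 1 and 3 and all were below Control 2. The log2FC was 2.25 ± 0.41 (adjusted p = 0.00382) and 2.64 ± 0.42 (adjusted p = 0.00177), but with all 3 controls the direction reversed to -0.56 (adjusted p = 0.621) and -0.17 (adjusted p = 0.891), so the direction for COL23A1 rests on which controls are used. COL16A1 is a fibril-associated collagen. For COL16A1 the lowest, median and highest normalized counts were 422, 731 and 1209 under cold conditions and 537, 749.8 and 1071 under ambient-temperature conditions. COL16A1 was at 343, 418 and 209 in Controls 1, 2 and 3. Treated lambs and all 3 controls did not overlap, with log2FC of 1.48 ± 0.40 (adjusted p = 0.021) and 1.47 ± 0.40 (adjusted p = 0.0192); with Controls 1 and 2 alone these were 1.02 (adjusted p = 0.0819) and 1.01 (adjusted p = 0.0916). COL7A1 encodes the anchoring fibrils that fasten epithelial basement membranes to the stroma. COL7A1 had 61.9 and 78.0 normalized counts in Controls 1 and 3 and 169 in Control 2. Counts of COL7A1 in cold lambs ran from 101 through a median of 148 to 187 and in AT lambs from 113 through 216 to 238. All treated lambs were above Controls 1 and 3, and 2 of 6 cold and 4 of 6 AT lambs were above Control 2. Its log2FC of 1.06 ± 0.35 (adjusted p = 0.046) and 1.49 ± 0.36 (adjusted p = 0.0113) became 0.50 (adjusted p = 0.347) and 0.94 (adjusted p = 0.0832) with all 3 controls. COL14A1, the most abundant FACIT gene in thyroid, had lower counts in all treated lambs than in Controls 1 and 3 (5017 to 7752 against 10902 and 12337, with 6745 in Control 2). Its log2FC was -0.89 ± 0.18 (adjusted p = 0.00577) and -0.92 ± 0.18 (adjusted p = 0.00395). With TMM scaling COL14A1 was at -0.60 (adjusted p = 0.0557) and -0.57 (adjusted p = 0.064).

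**Figure D3:**
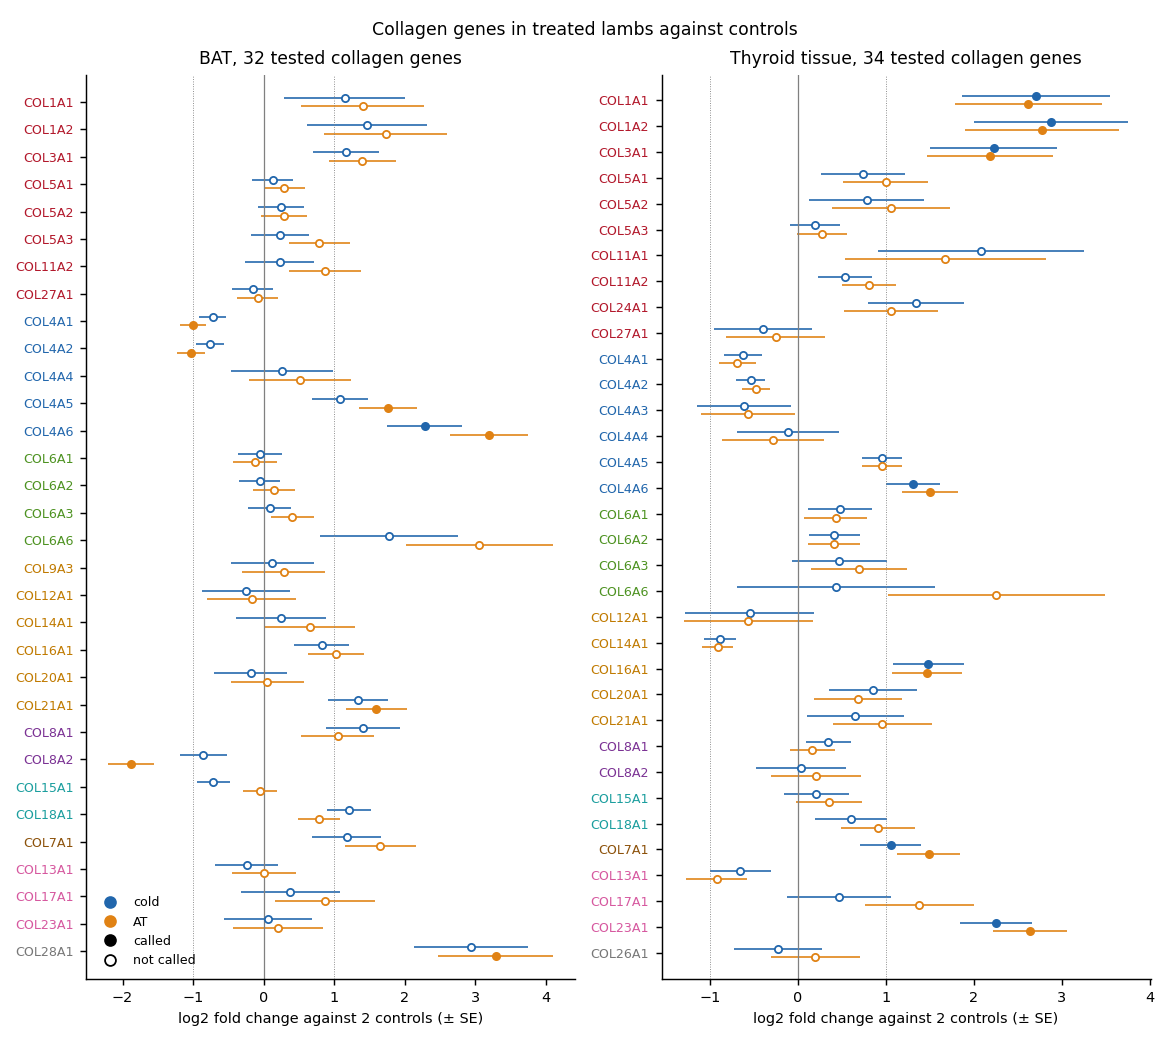
log2FC ± SE against controls for the collagen genes tested in BAT (left) and thyroid (right), under cold and ambient-temperature conditions, by class. Filled points passed log2FC of at least 1 in size with adjusted p below 0.05; in thyroid the 7 filled genes are the same for cold and AT, and in BAT the filled genes include COL4A1 and COL4A2 below 0 for AT only.

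In BAT against controls, the genes that passed were mostly those of basement membrane chains, and type I collagen did not pass. Under ambient-temperature conditions 7 of 32 collagen genes tested were called, where 6.02% of the 14905 genes tested were. Of the 7, 4 were upregulated (2.82% of all genes were) and 3 downregulated (3.19%). Under cold conditions 1 of the 32, COL4A6, was called, where 1.21% of all genes were, and 12 had an unadjusted p below 0.05; that count was 0 without any 1 of cold lambs 2, 3, 4 and 6 or AT lambs 3 and 5, 3 with all 3 controls and 4 with Controls 1 and 2. The median log2FC of the 32 genes was 0.24 under cold and 0.59 under ambient-temperature conditions, where that of all genes was -0.10 and -0.03. The 2 comparisons shared their controls. With TMM the split of all calls moved from 86 higher and 94 lower to 231 and 92 for cold and from 421 and 476 to 646 and 365 for AT, with 2 collagen genes up and none down for cold and 5 up and 1 down for AT.

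The major type IV chains were downregulated in BAT under ambient-temperature conditions, with cold values of the same sign that did not pass. The normalized count of COL4A1 was 17789.9 to 22505 (median 19855) in the 6 cold lambs and 13420.0 to 19889 (median 16343) in the 6 AT lambs. COL4A1 in Controls 1 and 3 was at 34891 and 31067, and in Control 2 at 34497. Treated lambs and all 3 controls did not overlap for COL4A1, and the log2FC was -1.001 ± 0.19 (adjusted p = 0.00682) for AT and -0.72 ± 0.19 (adjusted p = 0.0636) for cold. COL4A2 had 24970.0 and 21145 normalized counts in Controls 1 and 3 and 17215 in Control 2. Counts of COL4A2 in cold lambs ran from 11658 through a median of 13152 to 16028 and in AT lambs from 9139 through 11114 to 13686. For COL4A2 the groups did not overlap either, with log2FC of -1.03 ± 0.20 (adjusted p = 0.00755) for AT and -0.77 ± 0.20 (adjusted p = 0.063) for cold. Both AT calls stood at the size threshold: with all 3 controls COL4A1 was at -0.95 (adjusted p = 0.00599) and COL4A2 at -0.82 (adjusted p = 0.0158), and with TMM scaling at -0.89 (adjusted p = 0.014) and -0.92 (adjusted p = 0.018). Over 23 alternatives the AT call was lost in 12 for COL4A1 and 10 for COL4A2. The adjusted p was at most 0.0458 for COL4A1, but COL4A2 with Controls 2 and 3 alone was at -0.68 (adjusted p = 0.0632). Endothelial marker sums in BAT were 38164 to 56517 in cold lambs, 30812 to 41097 in AT lambs and 14722 to 51526 in controls, and mural cell marker sums 20149.5 to 36678, 12006 to 22876 and 22034 to 41759.7. Under ambient-temperature conditions 3 of 8 mural cell markers passed downward, ACTA2 (-1.68 ± 0.37), TAGLN (-1.23 ± 0.32) and KCNJ8 (-1.05 ± 0.26), with 1 of 8 higher and a median of -0.997, and of 8 endothelial markers KDR (-1.29 ± 0.20) passed downward, with 5 higher and a median of 0.10. All 8 genes of each list were detected, and their part in the type IV values was not tested.

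The minor type IV chains COL4A5 and COL4A6 were upregulated in BAT under ambient-temperature conditions, and COL4A6 under cold conditions too. For COL4A6 the lowest, median and highest normalized counts were 108, 148 and 241 under cold conditions and 151, 264 and 512 under ambient-temperature conditions. COL4A6 was at 16.04, 19.4 and 46.0 in Controls 1, 2 and 3. Every treated lamb was above every control, at log2FC of 2.29 ± 0.53 (adjusted p = 0.0434) for cold and 3.20 ± 0.55 (adjusted p = 0.00502) for AT. The AT call for COL4A6 held in all 23 alternatives and the cold call was lost in 9 of them, with adjusted p at most 0.0685. COL4A5 had 74.9 and 214 normalized counts in Controls 1 and 3 and 187 in Control 2. Counts of COL4A5 in cold lambs ran from 247 through a median of 292 to 387 and in AT lambs from 331 through 428 to 796. COL4A5 was called for AT at 1.76 ± 0.41 (adjusted p = 0.017), with 1.08 ± 0.40 (adjusted p = 0.16) for cold, and again no treated lamb overlapped a control. The ratio of COL4A5 to COL4A6 reads was 4.91 to 10.2 in the 3 controls, 1.70 to 2.51 in cold lambs and 1.54 to 2.32 in AT lambs, with no overlap between controls and treated lambs. In thyroid the same ratio was 9.64 to 11.2 in controls, 5.94 to 13.6 in cold lambs and 5.33 to 9.29 in AT lambs, and these ranges overlapped for cold.

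The other calls in BAT of AT lambs were on low-expressed genes. COL8A2, a short-chain collagen known from the membrane beneath the corneal endothelium, was downregulated against Controls 1 and 3. The normalized count of COL8A2 was 67.0 to 171 (median 133) in the 6 cold lambs and 38.2 to 86.8 (median 62.9) in the 6 AT lambs. COL8A2 in Controls 1 and 3 was at 198 and 273, and in Control 2 at 66.7. The log2FC for AT was -1.88 ± 0.32 (adjusted p = 0.00443), and with Control 2 as 1 of 2 controls it was -1.34 (adjusted p = 0.056) or -0.96 (adjusted p = 0.132). Every treated lamb was below Controls 1 and 3, and 3 of 6 AT lambs and no cold lamb were below Control 2. COL21A1 is a fibril-associated collagen of vessel walls. For COL21A1 the lowest, median and highest normalized counts were 127, 228 and 296 under cold conditions and 166, 242 and 375 under ambient-temperature conditions. COL21A1 was at 46.8, 34.4 and 122 in Controls 1, 2 and 3. Its log2FC was 1.60 ± 0.44 (adjusted p = 0.0317) for AT and 1.34 ± 0.43 (adjusted p = 0.114) for cold, and every treated lamb was above all 3 controls. COL28A1, a collagen found around nerves, had 5.35 and 0.780 normalized counts in Controls 1 and 3, 53.8 in Control 2 and 14.3 to 57.6 in AT lambs. All treated lambs were above Controls 1 and 3 and 1 of them was above Control 2. COL28A1 was called at 3.29 ± 0.81 (adjusted p = 0.0215), a value that was 0.64 (adjusted p = 0.62) with all 3 controls.

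The fibrillar genes of BAT were variable among treated lambs. The normalized count of COL1A1 was 6978 to 30842 (median 12372) in the 6 cold lambs and 5255 to 60233 (median 11967) in the 6 AT lambs. COL1A1 in Controls 1 and 3 was at 6812 and 7372, and in Control 2 at 9907. Treated lambs lay on both sides of the controls, and the log2FC of COL1A1 was 1.15 ± 0.86 (adjusted p = 0.513) for cold and 1.41 ± 0.87 (adjusted p = 0.328) for AT. COL1A2 had 2548 and 4228 normalized counts in Controls 1 and 3 and 5157 in Control 2. Counts of COL1A2 in cold lambs ran from 4132 through a median of 7187 to 18123 and in AT lambs from 3484 through 7394 to 34133. For COL1A2 4 of 6 cold and 4 of 6 AT lambs were above all 3 controls, and the log2FC was 1.46 ± 0.85 (adjusted p = 0.389) and 1.73 ± 0.87 (adjusted p = 0.223). For COL3A1 the lowest, median and highest normalized counts were 16829.9, 23266 and 44773 under cold conditions and 15781, 27704 and 64572 under ambient-temperature conditions. COL3A1 was at 12294, 12351 and 12405 in Controls 1, 2 and 3. All 12 treated lambs were above all 3 controls for COL3A1, yet its log2FC of 1.16 ± 0.47 (adjusted p = 0.195) and 1.40 ± 0.47 (adjusted p = 0.0751) missed the threshold; with all 3 controls the AT value was 1.47 (adjusted p = 0.0309). The highest counts of COL1A1, COL1A2 and COL3A1 were all in AT lamb 6, which also had the highest fibroblast marker sum in BAT, 34389. That sum was 11346 to 17769 in cold lambs and 10287 to 25016 in controls, and the part of fibroblast content was not tested. The same library had the lowest brown adipocyte marker sum in BAT, 809, and the lowest count of UCP1, the uncoupling protein of brown adipocytes, at 195, with 768 in AT lamb 4 next. Brown adipocyte sums in BAT were 4950.3 to 17284 in cold lambs, 809 to 17035 in AT lambs and 23466 to 92733 in controls, so the sums of treated lambs and controls did not overlap. The larger part of each control sum was UCP1, at 20587 to 87348 in controls and 195 to 12953 in treated lambs. The other genes of the list overlapped between treated lambs and controls. PRDM16 tended the other way, at 73.1 to 131 in controls and 107 to 364 in treated lambs. The part of these markers in the collagen values of BAT was not tested. Without AT lamb 6 the AT log2FC was 0.54 for COL1A1, 0.95 for COL1A2 and 1.06 for COL3A1, none of them called. Type V genes had log2FC of 0.13 ± 0.29 and 0.29 ± 0.29 for COL5A1, 0.25 ± 0.32 and 0.28 ± 0.32 for COL5A2 and 0.23 ± 0.42 and 0.79 ± 0.43 for COL5A3.

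**Figure D4:**
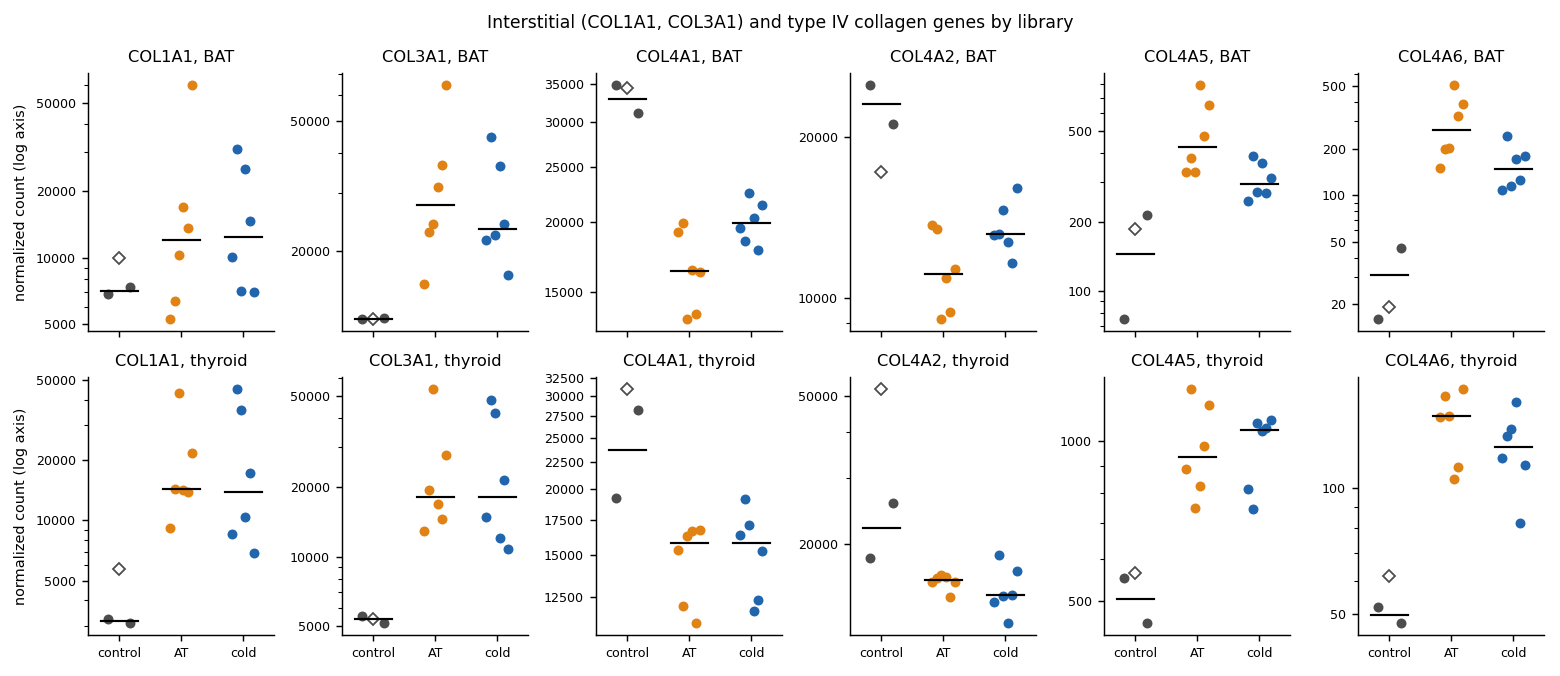
Normalized counts (log axis) of single collagen genes in each library by tissue and group, with bars at the medians (for controls, of Controls 1 and 3). The open diamond is Control 2. In thyroid COL1A1 and COL3A1 of all treated lambs lie above the controls, and in BAT COL4A1 of all treated lambs lies below them. Thyroid COL4A2 of Control 2 lies above all other thyroid libraries.

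No gene of type VI collagen or of the multiplexins was called against controls in either tissue. For COL6A1 the lowest, median and highest normalized counts were 4461, 5495 and 7887 under cold conditions and 3456, 5113 and 8405 under ambient-temperature conditions. COL6A1 was at 6315, 5845 and 5769.8 in Controls 1, 2 and 3. COL6A3 had 3027 and 2402 normalized counts in Controls 1 and 3 and 5144 in Control 2. Counts of COL6A3 in cold lambs ran from 2458 through a median of 2667 to 3892 and in AT lambs from 2421 through 3388 to 5861. For COL6A1, a core chain of type VI, the log2FC in BAT was -0.05 ± 0.31 and -0.12 ± 0.31, and for COL6A3, its large partner chain, 0.09 ± 0.30 and 0.41 ± 0.31, with treated lambs overlapping the controls for both. The thyroid levels of both genes also overlapped between treated lambs and controls. COL6A1 had 5133 and 5867 normalized counts in Controls 1 and 3 and 3957 in Control 2. Counts of COL6A1 in cold lambs ran from 5026 through a median of 6226 to 13003 and in AT lambs from 5186 through 7199 to 12127. For COL6A3 the lowest, median and highest normalized counts were 2692, 3178 and 6885 under cold conditions and 2427, 3649.8 and 11032 under ambient-temperature conditions. COL6A3 was at 3239, 2077 and 2598 in Controls 1, 2 and 3. In thyroid the log2FC was 0.48 ± 0.36 and 0.43 ± 0.36 for COL6A1 and 0.47 ± 0.54 and 0.69 ± 0.55 for COL6A3. COL6A6 had outlying lambs: 1073 and 747 normalized counts in BAT of AT lambs 6 and 4 against a group median of 147, and 571 in thyroid of AT lamb 3 against a median of 35.4. In BAT all 6 cold and all 6 AT lambs (88.2 to 1073) were above all 3 controls (15.1 to 73.5) for COL6A6, although it was not called.

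COL15A1 and COL18A1 encode the multiplexins, whose C-terminal fragments include endostatin. The normalized count of COL15A1 was 4247 to 8024 (median 5540.4) in the 6 cold lambs and 7769.5 to 11409 (median 9168) in the 6 AT lambs. COL15A1 in Controls 1 and 3 was at 8287 and 10690.0, and in Control 2 at 4550.2. Cold lambs were all below Controls 1 and 3 for COL15A1, at log2FC of -0.71 ± 0.23 (adjusted p = 0.118), but only 1 of 6 was below Control 2, and for AT the log2FC was -0.05 ± 0.24 (adjusted p = 0.926). COL18A1 had 1369 and 1875 normalized counts in Controls 1 and 3 and 1407 in Control 2. Counts of COL18A1 in cold lambs ran from 2419 through a median of 3531 to 5855 and in AT lambs from 2445 through 2678 to 3479. All treated lambs were above all 3 controls for COL18A1, with log2FC of 1.21 ± 0.31 (adjusted p = 0.0615) for cold and 0.79 ± 0.30 (adjusted p = 0.114) for AT. The cold value passed in 11 of 23 alternatives, among them all 3 controls, at 1.35 (adjusted p = 0.0142), and TMM scaling, at 1.33 (adjusted p = 0.0257). The thyroid levels of both genes overlapped between treated lambs and controls. For COL15A1 the lowest, median and highest normalized counts were 1686, 2397 and 3822 under cold conditions and 1935, 2513 and 4426 under ambient-temperature conditions. COL15A1 was at 2998, 832 and 1479 in Controls 1, 2 and 3. COL18A1 had 1041 and 918 normalized counts in Controls 1 and 3 and 1664 in Control 2. Counts of COL18A1 in cold lambs ran from 798 through a median of 1353 to 2836 and in AT lambs from 1189.8 through 1889 to 2432. In thyroid the log2FC was 0.21 ± 0.37 and 0.35 ± 0.37 for COL15A1 and 0.60 ± 0.41 and 0.91 ± 0.42 for COL18A1, none of them called.

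Cold and ambient-temperature lambs, which were the same age, showed no collagen gene past the threshold in either tissue. In BAT none of the 32 genes was called, where 0.275% of all genes were, and 5 had an unadjusted p below 0.05 in edgeR's test, namely COL8A2, COL15A1, COL4A6, COL4A5 and COL6A6. COL8A2 was higher under cold conditions at 1.03 ± 0.25 (adjusted p = 0.111), with overlapping ranges (67.0 to 171 against 38.2 to 86.8), and was the 1 collagen gene that DESeq2's Wald test called, at 1.03 (adjusted p = 0.0107). COL15A1 was lower under cold conditions at -0.67 ± 0.17 (adjusted p = 0.127), with 5 of 6 cold lambs below all 6 AT lambs. COL4A6 and COL4A5 were at -0.91 ± 0.31 (adjusted p = 0.279) and -0.68 ± 0.26 (adjusted p = 0.314), and 26 of the 32 genes had a lower value in cold than in AT lambs, with a median log2FC of -0.24 where that of all genes was -0.05. In thyroid none of the 34 was called by edgeR or DESeq2, where the share of all genes called was 0%, and 2 had an unadjusted p below 0.05, COL6A6 at -1.83 ± 0.77 (adjusted p = 0.907) and COL17A1, a hemidesmosome collagen, at -0.91 ± 0.40 (adjusted p = 0.907). Without AT lamb 3 the COL6A6 value was -0.18 (adjusted p = 0.962). For COL17A1 the lowest, median and highest normalized counts were 10.9, 32.8 and 56.5 under cold conditions and 26.98, 60.0 and 83.0 under ambient-temperature conditions. COL17A1 was at 22.8, 133 and 23.8 in Controls 1, 2 and 3. Between cold and AT lambs the type I and III genes differed by 0.09 ± 0.50, 0.10 ± 0.51 and 0.04 ± 0.44 in thyroid and by -0.25 ± 0.57, -0.27 ± 0.55 and -0.23 ± 0.31 in BAT (COL1A1, COL1A2 and COL3A1 in turn).

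The 2 tissues differed in most collagen genes. Across the 12 treated lambs 31 of 38 genes tested were called between BAT and thyroid, where 40.6% of the 17021 genes tested were, with 24 higher in BAT (27.2% of all genes) and 7 higher in thyroid (13.3%). The median log2FC of BAT over thyroid was 1.27 for the 38 genes and 0.34 for all genes, a median that other scalings moved to 0.10 (TMM) and -0.04 (DESeq2 median of ratios), with 21 and 18 collagen genes then higher in BAT and 7 higher in thyroid in each. With these 2 scalings 56.9 and 50.9% of all calls were higher in BAT, against 67.1% with the reference genes. The 8 genes with the lowest p-values follow. Per kilobase, COL15A1 was 1183 to 3177 (median 2173) in BAT and 176 to 478 (median 263) in thyroid, a log2FC of 2.81 ± 0.17 (adjusted p = 3.53e-14). COL18A1 had ranges of 740.2 to 1928 and 98.7 to 362, at 2.35 ± 0.19 (adjusted p = 2.21e-11). COL4A1 was at 1.65 ± 0.10 (adjusted p = 6.31e-14) and COL4A2 at 1.06 ± 0.09 (adjusted p = 3.19e-11), and the type V chains COL5A3 and COL5A1 at 3.13 ± 0.20 (adjusted p = 1.23e-13) and 2.12 ± 0.20 (adjusted p = 4.56e-10). The COL4A2 call was lost for size with TMM (0.83), DESeq2 scaling (0.69) and all 3 controls with TMM (0.75). For these 6 genes BAT was higher in 12 of 12 lambs and the ranges of the tissues did not overlap. Higher in thyroid in 12 of 12 lambs were COL23A1, at -5.02 ± 0.27 (adjusted p = 6.76e-15), and COL8A1, at -2.81 ± 0.22 (adjusted p = 1.40e-11), with the levels given above. The other genes higher in thyroid were COL11A1, COL14A1, COL24A1, COL26A1 and COL27A1. COL27A1, at -1.13 ± 0.23 (adjusted p = 0.000105), was not called with the lamb as a block, at -0.998 (adjusted p = 0.000709).

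COL1A1 was higher in BAT in 10 of 12 lambs at 1.18 ± 0.41 (adjusted p = 0.0122), COL1A2 in 10 of 12 at 1.23 ± 0.41 (adjusted p = 0.00898) and COL3A1 in 12 of 12 at 1.68 ± 0.29 (adjusted p = 1.20e-05). Without AT lamb 6 the COL1A1 and COL1A2 calls were lost, at 0.76 (adjusted p = 0.0663) and 0.87 (adjusted p = 0.0416), as with DESeq2 scaling (0.88 and 0.93) and with all 3 controls and TMM (0.95 and 0.99), while COL3A1 kept its call in all 22 alternatives. Type VI genes were at 0.99 ± 0.18 (adjusted p = 1.56e-05) for COL6A1, 0.23 ± 0.15 (adjusted p = 0.173) for COL6A2 and 0.94 ± 0.22 (adjusted p = 0.000473) for COL6A3, none called for size; with the lamb as a block COL6A1 and COL6A3 were called at 1.002 and 1.06. COL4A5 differed by 0.07 ± 0.16 while its neighbour COL4A6 was higher in BAT at 2.09 ± 0.21 (adjusted p = 7.78e-10). COL4A3 and COL4A4 were at -0.61 ± 0.30 and -0.62 ± 0.34 and COL20A1 at 0.07 ± 0.25, not called.

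Whether the effect of treatment differed between the tissues was tested as an interaction (the BAT effect minus the thyroid effect) in 1 fit of both tissues, and edgeR called no collagen gene of 38. The share of all genes called was 0.182% for cold against control, 1.66% for AT against control and 0% for cold against AT. At an unadjusted p below 0.05 there were 2 genes for cold against control (COL9A2 and COL23A1), 6 for AT against control (COL23A1, COL8A2, COL4A6, COL14A1, COL28A1 and COL24A1) and 3 for cold against AT (COL8A2, COL9A2 and COL4A5), and DESeq2's Wald test called 0, 2 and 0. COL9A2, a cartilage FACIT chain present at low counts, had an interaction of 3.38 ± 0.95 (adjusted p = 0.138). COL23A1 had -2.13 ± 0.74 (adjusted p = 0.24) for cold and -2.37 ± 0.74 (adjusted p = 0.0901) for AT, values that changed sign to 1.03 (adjusted p = 0.691) and 0.81 (adjusted p = 0.704) with all 3 controls. COL4A6 had 1.77 ± 0.59 (adjusted p = 0.112) for AT, and 2.10 (adjusted p = 0.0231) with all 3 controls. COL1A1, COL1A2 and COL3A1, called in thyroid and not in BAT, had interactions of -1.49 ± 1.15 (adjusted p = 0.632), -1.35 ± 1.15 (adjusted p = 0.669) and -1.01 ± 0.80 (adjusted p = 0.645) for cold and -1.16 ± 1.15 (adjusted p = 0.626), -0.997 ± 1.14 (adjusted p = 0.683) and -0.74 ± 0.80 (adjusted p = 0.658) for AT. The tissues were thus not shown to differ in these effects. The interactions of COL4A1 were -0.06 ± 0.28 and -0.26 ± 0.28, and those of COL4A2 -0.19 ± 0.25 and -0.50 ± 0.25.

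Chains that assemble into 1 molecule varied together across lambs in most pairs. In the 12 treated lambs 15 relations were computed on log2 normalized counts, each with 2-sided tests of 100000 permutations (smallest possible p 1e-05) and Benjamini-Hochberg adjustment over the 15. COL1A1 and COL1A2 had Pearson's r = 0.998 (permutation p = 1e-05, adjusted 3.00e-05) and Spearman's rho = 0.986 (permutation p = 1e-05, adjusted 0.00015) in BAT. In thyroid they had Pearson's r = 0.976 (permutation p = 2.00e-05, adjusted 4.29e-05) and Spearman's rho = 0.937 (permutation p = 2.00e-05, adjusted 0.00015). Without the 2 lambs farthest from the median r was 0.994 and 0.952, and within cold and within AT lambs it was 0.998 and 0.999 in BAT and 0.991 and 0.963 in thyroid. The ratio of their reads stayed between 1.16 and 1.39 in treated BAT, while COL1A1 itself spanned 5255 to 60233 normalized counts. COL3A1 followed COL1A1 with Pearson's r = 0.942 (permutation p = 2.00e-05, adjusted 4.29e-05) and Spearman's rho = 0.909 (permutation p = 0.00012, adjusted 0.000257) in BAT. In thyroid this pair had Pearson's r = 0.977 (permutation p = 1e-05, adjusted 3.00e-05) and Spearman's rho = 0.944 (permutation p = 4.00e-05, adjusted 0.00018), and without the 2 farthest lambs r was 0.852 and 0.955. Both genes of a pair share the library factor and the tissue piece.

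The head-to-head type IV pairs passed in BAT and did not pass in thyroid for COL4A1 with COL4A2 and COL4A5 with COL4A6. COL4A1 and COL4A2 had Pearson's r = 0.959 (permutation p = 1e-05, adjusted 3.00e-05) and Spearman's rho = 0.881 (permutation p = 0.00037, adjusted 0.000694) in BAT, with r of 0.894 without the 2 farthest lambs, 0.808 within cold and 0.990 within AT lambs. In thyroid they had Pearson's r = 0.575 (permutation p = 0.0491, adjusted 0.0613) and Spearman's rho = 0.378 (permutation p = 0.229, adjusted 0.245), and r was 0.321 without the 2 farthest lambs, so the relation there did not pass and rests on those lambs. COL4A5 and COL4A6 had Pearson's r = 0.970 (permutation p = 1e-05, adjusted 3.00e-05) and Spearman's rho = 0.944 (permutation p = 5.00e-05, adjusted 0.00018) in BAT, r being 0.948 without the 2 farthest. The thyroid values were Pearson's r = 0.187 (permutation p = 0.563, adjusted 0.563) and Spearman's rho = 0.301 (permutation p = 0.343, adjusted 0.343), r being 0.407 without the 2 farthest. COL4A3 and COL4A4, tested in thyroid, had Pearson's r = 0.891 (permutation p = 0.00021, adjusted 0.000394) and Spearman's rho = 0.909 (permutation p = 0.00012, adjusted 0.000257), with r of 0.863 without the 2 farthest. Whether a correlation differed between BAT and thyroid was not tested. The type VI chains COL6A1 and COL6A2 had r of 0.823 in BAT and 0.942 in thyroid (rho 0.769 and 0.923, adjusted permutation p of r 0.00172 and 3.00e-05). Their r without the 2 farthest lambs was 0.735 and 0.859. The neighbours COL3A1 and COL5A2 had r of 0.837 and 0.848 (rho 0.713 and 0.727, adjusted permutation p of r 0.00105 in each), falling to 0.780 and 0.683 without the 2 farthest lambs. Across the classes, COL1A1 and COL4A1 had r of -0.318 in BAT and 0.436 in thyroid (rho -0.441 and 0.510, adjusted permutation p of r 0.337 and 0.184), and neither passed.

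**Figure D5:**
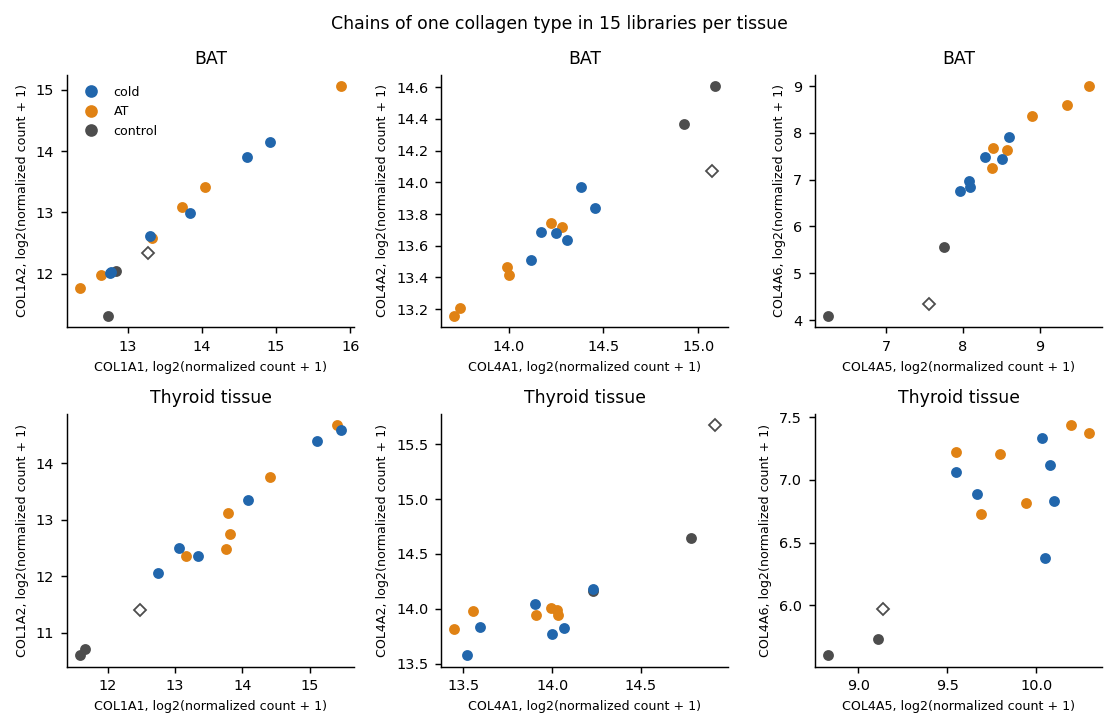
Normalized counts (log axes) of 2 chains of 1 collagen against each other, 1 point per library, for BAT and thyroid, with the groups marked and the open diamond for Control 2. COL1A1 and COL1A2 lie near a line in both tissues, and COL4A5 and COL4A6 had r = 0.970 in BAT and 0.187 in thyroid.

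Among genes that fold and export collagen those that passed in thyroid against Controls 1 and 3 were downregulated, while the fibril-associated proteoglycans that passed were upregulated. The lists were drawn from textbook roles with earlier results known, and their counts stand beside 6.15% of all genes called downward and 1.89% upward under cold, and 5.98% and 1.83% under ambient-temperature conditions. Of 14 folding and export genes tested in thyroid, 5 were downregulated and none upregulated in each comparison, the same 5. They were SEC24D (-1.69 ± 0.23 under cold and -1.77 ± 0.23 under ambient-temperature conditions), TMED2 (-1.23 ± 0.22 and -1.35 ± 0.22), HSPA5 (-2.79 ± 0.51 and -2.74 ± 0.51), PDIA3 (-1.43 ± 0.28 and -1.61 ± 0.28) and SEC13 (-1.14 ± 0.23 and -1.08 ± 0.23). HSPA5 is a general chaperone of the endoplasmic reticulum, and SEC24D and SEC13 are coat proteins of export vesicles; all 3 serve secreted proteins in general. With TMM 3 of the 14 (SEC24D, HSPA5 and PDIA3) were downregulated in each comparison and, under ambient-temperature conditions, FKBP10 was upregulated. Of 13 hydroxylation and glycosylation genes, 1 was downregulated in each thyroid comparison, P4HB (-1.41 ± 0.26 and -1.51 ± 0.26), the shared subunit of prolyl 4-hydroxylase. Of 7 fibril-associated proteoglycans tested, 3 were upregulated in each: PRELP (1.61 ± 0.30 and 1.55 ± 0.30) and DCN (1.67 ± 0.47 and 1.64 ± 0.47) in both, FMOD under cold (2.11 ± 0.60) and LUM under ambient-temperature conditions (2.33 ± 0.77). The median log2FC of that list was 1.61 and 1.55, against -0.28 for all genes, and with TMM 4 and 6 of the 7 were upregulated. Of 11 cleavage and cross-linking genes, LOXL3 was upregulated in both (1.19 ± 0.38 and 1.18 ± 0.38), PXDN, a peroxidase that cross-links type IV collagen, was downregulated in both (-1.71 ± 0.28 and -1.54 ± 0.28), and LOXL4 was downregulated under cold (-1.56 ± 0.52), a call that TMM did not make. Of 14 basement membrane partners, AGRN was upregulated in both (1.11 ± 0.24 and 1.002 ± 0.23), of 9 collagen receptors LAIR1 under cold (1.84 ± 0.49), and of 5 genes of TGF-beta ligands and targets TGFBI was downregulated under ambient-temperature conditions (-1.90 ± 0.54), not with TMM.

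In BAT, HSPA5 (-1.71 ± 0.36 under cold and -1.90 ± 0.36 under ambient-temperature conditions) and P4HA1 (-1.64 ± 0.28 and -2.14 ± 0.28), the catalytic subunit of prolyl 4-hydroxylase, were downregulated in both, where 0.631% of all genes were for cold and 3.19% for AT. Each was the 1 gene called of its list under cold, of 14 and 13 tested. Under ambient-temperature conditions SERPINH1, the collagen-specific chaperone, was downregulated as well (-1.40 ± 0.37), which made 2 of 14. So were LOXL4 (-2.16 ± 0.46, 1 of 12 cleavage and cross-linking genes), the laminin chain LAMC3 (-1.18 ± 0.25, 1 of 12 basement membrane partners), the collagen-binding integrin chains ITGA2 (-1.50 ± 0.39) and ITGA1 (-1.12 ± 0.30), 2 of 9 receptors, and CCN2 (-2.28 ± 0.49), a growth factor induced by TGF-beta, 1 of 5. The propeptide protease TLL1, 1 of the same 12 cleavage and cross-linking genes, was upregulated (2.19 ± 0.51), where 2.82% of all genes were. With TMM SERPINH1 was not called and AGRN was upregulated. With all 3 controls LAMC3 and ITGA1 were not called for AT, while DDR1 and MRC2, 2 of the 9 receptors, were upregulated. That setting also called AGRN upward and NID1 and PLOD2 downward in both comparisons. PDIA3 was then downregulated for AT and TLL1 upregulated for cold. None of the 7 fibril-associated proteoglycans tested in BAT passed in either comparison, at list medians of 0.47 and 0.83. With all 3 controls FMOD was upregulated in both. Between cold and AT lambs no gene of the 7 lists passed in either tissue. Fibroblast marker sums in thyroid, a list that holds DCN and LUM too, were 11784 to 22918 in cold lambs, 11334 to 29826 in AT lambs and 7957 to 15451 in controls, with all 8 genes detected, and thyrocyte marker sums were 1787520.0 to 2703920.0, 1322900.0 to 2416070.0 and 1925930.0 to 5866870.0. Of the 8 fibroblast markers, DCN passed under cold and DCN and LUM under ambient-temperature conditions, and of 7 thyrocyte markers tested 2 and 3 were downregulated. The part of either in the fibrillar and type IV values was not tested.

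The remaining marker lists were summed in the same way for cells that could be in the pieces. Adipocyte sums in BAT were 45244 to 85321 in cold lambs, 30043 to 121324 in AT lambs and 87976 to 284003 in controls. Markers of mesothelium, the lining of body cavities, reached 4375 in BAT of AT lamb 4, the lamb with the second highest COL6A6, and were 228 to 571 in cold lambs and 152 to 305 in controls. Proliferation markers were 845 to 3226, 919 to 1863 and 194 to 904 in BAT of cold, AT and control lambs and 774 to 1731, 905 to 2296 and 688 to 1074 in thyroid, where 4 of 8 were upregulated in each comparison. Keratinocyte markers, counted because COL7A1 and COL17A1 are skin genes, were 273 to 407, 251 to 774 and 320.3 to 467 in thyroid. Of the 5 keratinocyte genes counted, 3 had a median under 10 reads there. KRT10 alone was at 139 to 349, and KRT5 was highest in AT lamb 2, at 355. Schwann cell and nerve markers, beside COL28A1, were 149.5 to 266, 126 to 426 and 104 to 465 in BAT. The part of these cells in any value was not tested.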

How the data were processed

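RNA from BAT and thyroid tissue of 15 lambs was sequenced, and the authors deposited raw read counts per gene (28524 genes, 30 libraries). Per the submitters' processing notes, reads passed through FastQC 0.11.9 and Trimmomatic 0.39, were aligned with STAR 2.7.7a to Oar_rambouillet_v1.0 and counted with featureCounts of Subread 2.0.0. Multimapping reads were included per the study's methods, so counts of near-identical genes are uncertain. Groups were taken from the sample labels. Control 2, a lamb that the study left out in both tissues, was identified by matching the study's normalized values to the counts, and was left out of the tests.

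Counts were tested per tissue with edgeR 4.0.16 (R 4.3.3; robust quasi-likelihood test, all 3 groups in 1 fit) on genes that reached 10 reads in 10 or more libraries, with library factors from ACTB, RPL19 and HUWE1. Benjamini-Hochberg adjustment covered all genes tested, and a call needed log2FC of at least 1 in size and an adjusted p below 0.05. BAT was compared with thyroid, and treatment effects between tissues, in 1 fit of both tissues with the same reference genes. Levels per kilobase used exon lengths of the deposited table. Correlations used log2 of the normalized count plus 1 (scipy 1.17.1). Scripts were tested on simulated counts. The genes named were COL1A1, COL1A2, COL3A1, COL4A1, COL4A2, COL6A1, COL6A3, COL15A1 and COL18A1, every called member (of more than 8, the 8 with the lowest p), or the 2 with the lowest p where none was called; further members are given to account for the family, and were chosen with their values seen. The members, classes and gene lists were chosen with earlier results of these data known. Of the 42 members, 41 were found in the RefSeq gene table.

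Both tissues came from the same lambs. Deviations from group means correlated between the 2 libraries of a lamb at 0.0328 to 0.332 over 14 lambs, and 13 of 14 correlated best with their own partner. Alternatives were TMM and DESeq2 1.42.0 scaling, DESeq2's Wald test, all 3 controls, no filter, RNA integrity as covariate, only the groups compared, the lamb as a block, and each lamb left out. When Control 1 or Control 3 was left out, Control 2 took its place, so these fits swapped a control. Ranges given for leaving out 1 lamb include those swaps.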

Additional observations from a re-analysis of the deposited data

Results flagged for a closer look

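In groups of 6 lambs, 2 of 94 gene and group sets held a lamb whose gap to the nearest other, relative to the range, exceeded the 95% critical value of Dixon's test, and chance gives about 1 in 20. In thyroid of AT lamb 5 the normalized count of COL4A2 was 14392, below the 15734 to 16464 of the other AT lambs (ratio 0.663). In thyroid of AT lamb 3, the library with the skeletal muscle transcripts, COL8A2 was 142 against 35.2 to 49.6 in the other 5 (ratio 0.756).

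Control 2, which the tests did not use, had 5325 normalized counts of COL23A1 in thyroid, where the other 14 thyroid libraries held 146 to 2358. Its thyroid COL4A2 count was 52194, where the others held 12241 to 25697. Both values decide a call or a direction, as the comparisons with all 3 controls show.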

How the results depend on the processing

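Of the single-gene values recomputed under the alternatives, 2386 kept their sign and side of the threshold, 95 changed sign without being called in either fit, 116 lost a call, 40 gained one and 8 reversed a call, and where no value above moves with such a change the cause was not tested. The reversed calls were all thyroid COL23A1, at -0.56 (cold) and -0.17 (AT) with all 3 controls, -1.04 and -0.65 without Control 1, -1.12 and -0.73 without Control 3 (each with Control 2 added), and -0.60 and -0.19 with all 3 controls and TMM, an alternative chosen after seeing the data; leaving out 1 lamb gave -1.12 to 2.34 (cold) and -0.73 to 2.73 (AT). Among uncalled values, the COL23A1 interactions of -2.13 (cold) and -2.37 (AT) reached 2.02 and 1.82 with Control 2 in place of Control 3, and COL1A1 in BAT of cold against AT lambs went from -0.25 to 0.57 without AT lamb 6. In BAT of cold lambs against controls the count of called collagen genes, 1, was 2 with TMM, DESeq2 scaling or only the 2 groups compared, 3 with all 3 controls, 4 with DESeq2's Wald test or all 3 controls and TMM, 0 without the filter or with RNA integrity as a covariate, and 0 to 4 on leaving out 1 lamb. In BAT of AT lambs against controls the 7 became 4 with only the 2 groups compared and 5 to 9 on leaving out 1 lamb. In BAT of cold against AT lambs the 0 became 1 (COL8A2) with DESeq2's Wald test and 0 to 1 on leaving out 1 lamb, the 1 being without AT lamb 6. In thyroid against controls the 7 of cold lambs became 3 without the filter and 2 to 7 on leaving out 1 lamb, and the 7 of AT lambs became 4 without the filter or with only the 2 groups compared, 11 on adjusted p alone and 2 to 8 on leaving out 1 lamb. For the difference between tissues, 0 became 0 to 1 for cold against control (1 with Control 2 in place of Control 1, COL9A2) and, for AT against control, 2 with DESeq2's Wald test, 1 with all 3 controls and 0 to 1 on leaving out 1 lamb (1 with Control 2 in place of Control 3, COL4A6). Between BAT and thyroid the 31 ranged from 25 to 34. The median BAT control ratio of fibrillar to type IV collagen, 0.689, was 0.547 with COL15A1 and COL18A1 counted as type IV and 0.416 without COL1A1 and COL1A2, which also took the medians of cold and AT lambs from 1.86 and 2.79 to 1.12 and 1.78 in BAT and from 1.87 and 1.79 to 0.917 and 0.941 in thyroid, all ranges still above the controls. With the lamb as a block, 32 genes were called between BAT and thyroid and 0 for each difference between tissues, and the block changed no call but those of COL6A1 and COL6A3 (gained) and COL27A1 (lost).

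With 2 control lambs, a control value that is far from the other moves every comparison against controls. Members that did not reach 10 reads in at least 10 libraries were not tested. Some of them were above 10 reads in many libraries, such as COL9A2 in BAT with 15 to 46 reads in the 6 cold lambs.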
